A study of Mus musculus with 6 samples.

Results

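The oligodendrocyte lineage of the newborn cerebellum was followed through 32 genes that mark its successive stages, read from the bulk RNA of P1 cerebella. The genes were chosen by symbol, and each was found as a row among the 54532 genes of the count table. Of the 32, 30 passed edgeR's filter on low counts and belonged to the 17505 genes tested. They were placed in 4 groups: 5 surface and matrix genes of the progenitors, 6 transcription factors of the lineage, 7 genes of the committed precursor, and 14 genes of myelin and maturing cells.

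Of the 6 libraries, 3 came from cerebella of control littermates of genotype *Tox3f/f*, which carry the floxed allele without Cre, and 3 from *Nestin-cre;Tox3f/f* animals, here called mutants. All animals were at postnatal day 1, and both groups carried the floxed allele. Nestin-cre expresses Cre recombinase in neural progenitors and their progeny, so the deletion was not limited to oligodendrocytes or to granule neuron progenitors (GNPs). Only the mutants carried the transgene, and its presence and the loss of *Tox3* cannot be told apart. The labels do not say whether a library held RNA of 1 cerebellum or of several, so p-values measure the spread between these libraries.

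Oligodendrocytes arise from progenitors that are kept dividing by platelet-derived growth factor through its receptor PDGFRA and that carry the proteoglycan NG2. Commitment to differentiate brings loss of PDGFRA and transient expression of genes such as *Gpr17*, *Bcas1* and *Enpp6*, after which *Myrf* and *Sox10* drive the genes of the myelin sheath. In the mouse cerebellum these cells are few at birth and myelination follows in the first weeks of life.

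Total counts ranged from 15391854 to 17178478 per library, at which 3 counts correspond to at most 0.196 CPM (each count divided by the TMM-normalized size of its library). A call required an adjusted p under 0.01 together with an absolute log2 fold change over 0.5, and by that rule 530 genes were higher in the mutants (3.03% of those tested) and 635 were lower (3.63%). Without mutant 3 the number of higher genes was 349. The median log2 fold change of all genes tested was -0.007. *Tox3* itself was counted at 64.3, 63.0 and 64.4 CPM in the controls and at 55.3, 63.2 and 59.2 CPM in the mutants (log2 fold change -0.11, SE 0.06, adjusted p = 0.252). Its count over the whole gene therefore did not check the labels, whereas *Atoh1*, the factor that specifies GNPs, lay at 30.9 to 32.6 CPM in the controls and 0.249 to 0.577 CPM in the mutants. The 8 genes listed as markers of cerebellar tissue were detected in both groups, although 3 were called higher and 2 lower in the mutants, and 14 genes of the hindbrain outside the cerebellum had at most 14 counts in any library.

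Of the 30 lineage genes tested, 14 were called higher in the mutants, against a background of 3.03%, and the median log2 fold change of the 30 was 0.60. None was called lower by edgeR, against a background of 3.63%, and DESeq2 likewise called 14 higher and 0 lower. At an unadjusted p under 0.05, 22 were higher (background 18.2%) and 1 was lower (background 19%). The higher genes at that level include *Erbb3*, which passed the filter only through its level in the mutants. With the adjusted p alone, 16 genes were higher (background 6.55%), *Itpr2* and *Sirt2* being the additions, and 1 was lower (background 7.24%), the progenitor receptor gene *Pdgfra*. The libraries of the groups did not overlap in 22 genes, with the mutants above the controls in 21 (background 20.4%) and below them in 1 (background 20.1%). These 21 also include *Erbb3*, as do the 30 genes of the median. The libraries are bulk tissue, and CPM is a share of each library. More cells of the lineage, more RNA per cell and fewer cells of other types therefore cannot be told apart.

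**Figure D1:**
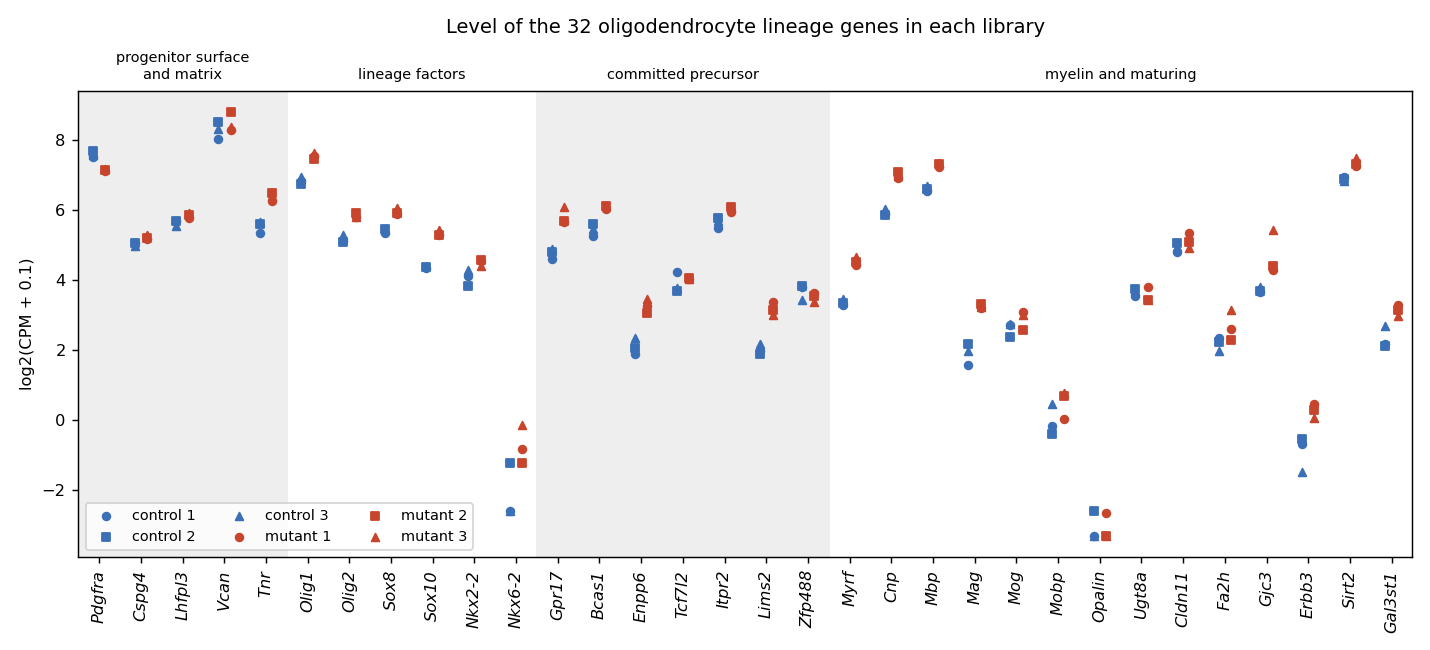
Level of each of the 32 genes in each library as log2(CPM + 0.1), with controls in blue and mutants in red and the marker shape giving the library number. *Pdgfra* is the gene whose 3 mutants all lie below the 3 controls, while *Sox10*, *Myrf*, *Cnp* and *Mag* show mutants clearly above controls.

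The promoters are shown for genes from both sides of this pattern, with 1 gene per stage and *Tnr* beside *Pdgfra*. Each is the 250 bases before the annotated start in the RefSeq annotation of GRCm38.p6, which held a window for 23 of the 32 genes. Capitals mark the core letters of the OLIG-type E-box (CAGCTG or CAGATG) and of the SOX element (ACAAAG or ACAATG) on either strand. The windows are *Pdgfra* at chr5:75152001-75152250 (+), *Tnr* at chr1:159523519-159523768 (+), *Sox8* at chr17:25570687-25570936 (-), *Enpp6* at chr8:46986637-46986886 (+) and *Mag* at chr7:30914923-30915172 (-).
Pdgfra: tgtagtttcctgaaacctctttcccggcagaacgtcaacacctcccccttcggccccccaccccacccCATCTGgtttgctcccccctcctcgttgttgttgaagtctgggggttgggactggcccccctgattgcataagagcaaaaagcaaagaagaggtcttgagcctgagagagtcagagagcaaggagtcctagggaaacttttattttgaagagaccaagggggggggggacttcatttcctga
Tnr: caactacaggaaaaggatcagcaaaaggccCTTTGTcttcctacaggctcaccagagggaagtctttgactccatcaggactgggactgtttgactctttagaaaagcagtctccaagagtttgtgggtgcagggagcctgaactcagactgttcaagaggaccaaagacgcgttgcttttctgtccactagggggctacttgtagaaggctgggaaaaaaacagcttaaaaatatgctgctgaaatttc
Sox8: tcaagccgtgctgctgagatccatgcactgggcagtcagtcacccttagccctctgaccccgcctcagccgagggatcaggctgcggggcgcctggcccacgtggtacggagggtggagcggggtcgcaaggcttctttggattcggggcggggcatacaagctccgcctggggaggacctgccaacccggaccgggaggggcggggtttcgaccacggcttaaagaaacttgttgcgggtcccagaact
Enpp6: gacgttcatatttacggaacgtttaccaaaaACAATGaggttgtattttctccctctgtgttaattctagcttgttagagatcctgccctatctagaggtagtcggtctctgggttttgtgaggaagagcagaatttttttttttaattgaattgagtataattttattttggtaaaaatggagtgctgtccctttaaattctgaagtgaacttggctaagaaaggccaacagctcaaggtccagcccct
Mag: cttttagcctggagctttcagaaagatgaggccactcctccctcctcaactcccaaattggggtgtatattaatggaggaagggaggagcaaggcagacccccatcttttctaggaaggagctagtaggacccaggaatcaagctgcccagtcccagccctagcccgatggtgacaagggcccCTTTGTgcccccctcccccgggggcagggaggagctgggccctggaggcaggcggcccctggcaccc
The *Pdgfra* window held an E-box at -182 from the start and no SOX letters. *Tnr*, *Enpp6* and *Mag* each held a SOX element, at -220, -219 and -67 from the start, and the *Sox8* window held neither motif. Of the *Mag* windows not printed, chr7:30914864-30915113 held a SOX element at -126 and chr7:30914322-30914571 held none. Over all 28 windows of the lineage genes, 13 held a SOX element (46.4%), against 25.2% of the 32817 windows of the whole table. An E-box stood in 5 of the 28 (17.9%), against 25.5% of all windows. Several windows belong to the same gene and overlap, and a match of letters is not evidence that a factor binds there.

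The progenitor surface and matrix genes did not move as a group, and *Pdgfra* and *Tnr* moved in opposite directions. Of the 5 genes, 1 was called higher (background 3.03%), and their median log2 fold change was 0.20. *Pdgfra* (ENSMUSG00000029231, chr5:75152292-75198215) encodes the receptor by which progenitors respond to platelet-derived growth factor. Its level was 185, 207 and 192 CPM in controls 1, 2 and 3 and at 139, 142 and 145 CPM in mutants 1, 2 and 3. Every mutant lay below every control, with a log2 fold change of -0.45 (SE 0.05, adjusted p = 3.07e-04), which is significant but short of the fold threshold. The opposite-strand transcripts *Gm42802* and *Gm42803* share 4.5% and 1.7% of the exon bases of *Pdgfra*. *Tnr* (chr1:159523769-159931729), the matrix protein tenascin-R, stood at 40.5, 48.8 and 50.7 CPM in the controls and rose to 77.1, 89.3 and 84.8 CPM in the mutants (log2 fold change 0.84, SE 0.09, adjusted p = 1.84e-04). Tenascin-R is made by oligodendrocytes and by some interneurons, so its level is not that of progenitors alone.

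The remaining progenitor genes did not pass the call. *Cspg4*, which encodes NG2, was counted at 33.0, 32.9 and 31.1 CPM in the controls and at 36.3, 36.5 and 38.7 CPM in the mutants. The libraries did not overlap, but the log2 fold change of 0.20 (SE 0.07) had an adjusted p of 0.0719. *Lhfpl3*, a membrane protein gene enriched in progenitors, had a log2 fold change of 0.21 (SE 0.07, adjusted p = 0.0493) with means of 49.9 ± 2.76 and 57.7 ± 2.50 CPM (SD, n = 3 libraries per group throughout). Of its exon bases, 17.6% are shared with the antisense transcript *A930003O13Rik*, whose reads cannot be separated without strand. *Vcan*, the proteoglycan versican, varied between libraries of the same group more than any other gene of this stage, from 262 to 367 CPM in the controls and from 311 to 447 CPM in the mutants, and its log2 fold change of 0.19 (SE 0.14) was not significant (adjusted p = 0.361). This value moved with single libraries and with sex. It was 0.03 without mutant 2, 0.07 without control 1, 0.32 without control 2 and 0.29 without mutant 1, with adjusted p from 0.191 to 0.891. With the level of Y-linked genes as a covariate it was 0.32 with an adjusted p of 1.33e-04, still under the fold threshold.

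Of the 6 transcription factors of the lineage, 5 were tested and 4 were called higher (background 3.03%), with a median log2 fold change of 0.66. In all 5 tested the mutants lay above the controls without overlap (background 20.4%). *Sox10* (chr15:79154908-79165240), which is required for oligodendrocyte differentiation, was counted at 20.1, 20.7 and 20.9 CPM in the controls and at 38.9, 38.7 and 42.9 CPM in the mutants, a log2 fold change of 0.97 (SE 0.08, adjusted p = 3.78e-05). The lowest mutant was well above the highest control. *Olig2* (chr16:91225457-91228677), which specifies the lineage, stood at 34.8, 34.0 and 39.4 CPM and rose to 55.5, 60.0 and 56.1 CPM (log2 fold change 0.66, SE 0.08, adjusted p = 3.07e-04).

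*Olig1* (chr16:91269772-91271933), the neighbouring gene of the same family, stood at 113, 107 and 124 CPM in the controls and 186, 176 and 200 CPM in the mutants (log2 fold change 0.71, SE 0.07, adjusted p = 9.85e-05). *Sox8*, which acts with *Sox10* in the lineage, increased from 42.5 ± 1.61 to 62.2 ± 4.19 CPM, with a log2 fold change of 0.55 (SE 0.07, adjusted p = 5.67e-04). That value lay near the fold threshold and was 0.49 without mutant 3, which ended its call. Opposite-strand transcripts share 7.3% of the exon bases of *Olig1*, 10.6% of those of *Sox8*, 9.7% of those of *Nkx2-2* and 12.9% of those of *Nkx6-2*. *Nkx2-2*, a homeobox gene of the transition to differentiation, was counted at 17.2, 14.1 and 19.3 CPM in the controls and 23.1, 23.9 and 21.2 CPM in the mutants, and did not reach the adjusted p (log2 fold change 0.43, SE 0.12, adjusted p = 0.0230). *Nkx6-2*, a homeobox gene of maturing cells, was too low to be tested, with 1, 5 and 1 counts in the controls and 8, 5 and 13 counts in the mutants.

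Genes of the committed precursor divided between 4 that were called higher (background 3.03%) and 3 that were not called, with a median log2 fold change of 0.64. *Gpr17* (chr18:31942997-31949636), a receptor expressed transiently between the progenitor and the myelinating cell, was counted at 24.2, 27.5 and 29.3 CPM in the controls and at 50.6, 51.7 and 68.3 CPM in the mutants (log2 fold change 1.07, SE 0.12, adjusted p = 2.91e-04). *Enpp6* (chr8:46986887-47096762), a choline phosphodiesterase of newly forming oligodendrocytes, increased from 3.58, 4.10 and 4.94 CPM to 9.46, 8.15 and 10.8 CPM (log2 fold change 1.17, SE 0.17, adjusted p = 0.00109). *Bcas1* (chr2:170346991-170427845), which marks cells at the onset of myelination, stood at 38.1, 48.3 and 43.9 CPM and rose to 65.4, 69.3 and 68.9 CPM (log2 fold change 0.64, SE 0.09, adjusted p = 6.32e-04). In each of these genes the lowest mutant was above the highest control. The antisense transcripts *Bcas1os1* and *Bcas1os2* share 11.7% and 0.9% of the exon bases of *Bcas1*.

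*Lims2*, an adaptor protein gene, increased from 3.93 ± 0.400 to 8.99 ± 1.13 CPM (log2 fold change 1.19, SE 0.16, adjusted p = 6.43e-04). It lies on the strand opposite *Gpr17*, and the pair share 188 exon bases, 3.6% of those of *Gpr17* and 6.1% of those of *Lims2*, so they are not fully separate measurements. *Itpr2*, the inositol trisphosphate receptor that gives its name to a class of differentiating precursors, had an adjusted p of 0.00749 with a log2 fold change of 0.39 (SE 0.08), under the fold threshold. Its levels were 44.9, 54.5 and 51.5 CPM in the controls and 61.1, 68.6 and 68.1 CPM in the mutants, without overlap.

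The other two genes of this stage, both transcriptional regulators active around the onset of differentiation, showed no difference beyond the replicate spread. *Tcf7l2* was counted at 18.7, 12.8 and 13.7 CPM in the controls and 16.3, 16.6 and 16.3 CPM in the mutants (log2 fold change 0.12, SE 0.14, adjusted p = 0.569). *Zfp488* was counted at 13.8, 14.1 and 10.7 CPM and 12.3, 11.6 and 10.3 CPM (log2 fold change -0.17, SE 0.13, adjusted p = 0.378). In both genes the groups overlapped. Their expression outside the lineage at P1 was not tested.

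**Figure D2:**
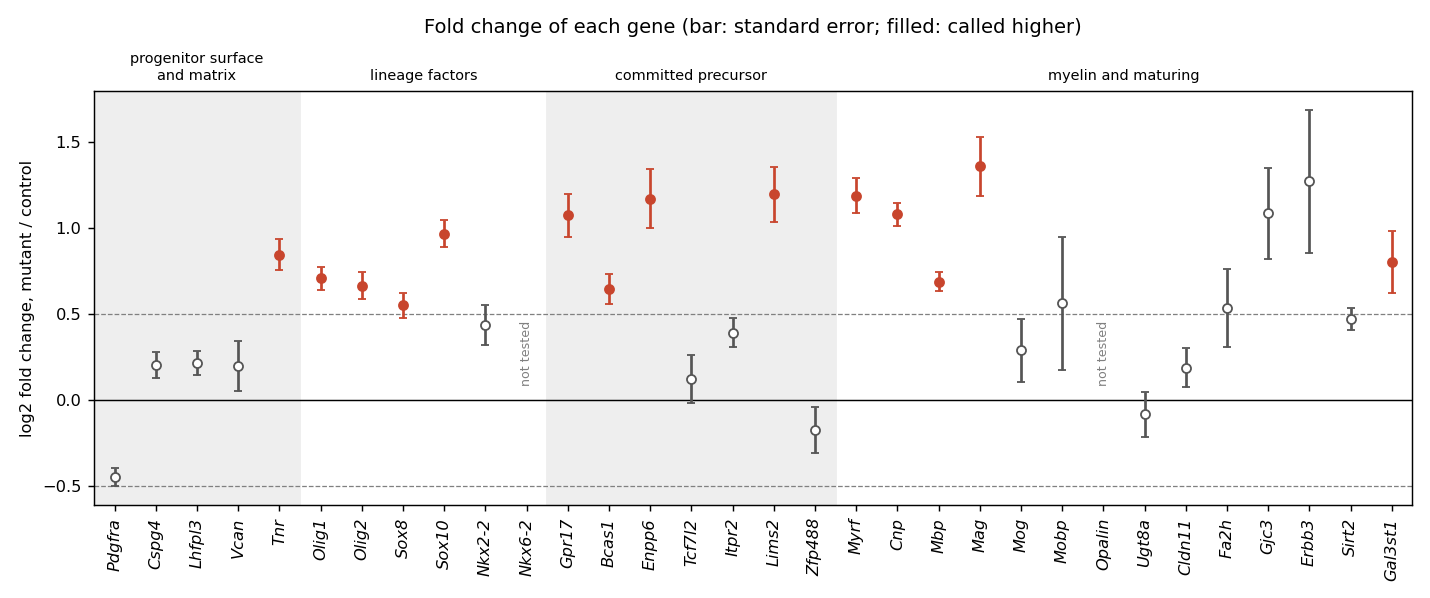
Log2 fold change of each gene, mutant over control, with its standard error as the bar, for the 30 genes tested. Filled points are genes called higher, the dashed lines are the fold threshold of 0.5 in either direction, and *Pdgfra* is the point lowest on the axis at -0.45.

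Of the 13 myelin and maturing genes tested, 5 were called higher (background 3.03%), with a median log2 fold change of 0.69. *Myrf* (chr19:10208272-10240748), the membrane-bound factor that turns on myelin genes, was counted at 9.57, 10.1 and 10.8 CPM in the controls and at 21.3, 23.0 and 25.0 CPM in the mutants (log2 fold change 1.19, SE 0.10, adjusted p = 4.78e-05). *Cnp* (chr11:100574904-100591729), an enzyme of non-compact myelin that is switched on early, stood at 59.0, 57.9 and 65.3 CPM and rose to 121, 138 and 127 CPM. Its log2 fold change of 1.08 (SE 0.07) had the smallest adjusted p of the lineage genes, 9.59e-06. *Cnp* shares 154 exon bases, 4.2% of its own, with *Dnajc7* on the other strand. *Mbp* (chr18:82475146-82585637), myelin basic protein, increased from 93.6, 97.0 and 103 CPM to 150, 161 and 162 CPM (log2 fold change 0.69, SE 0.06, adjusted p = 3.57e-05). The *Mbp* locus also gives the Golli transcripts, which are made in other cells, and counts per gene do not separate them.

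*Mag* (chr7:30899176-30914873), an adhesion protein of the inner myelin membrane, had the highest log2 fold change of all 30 genes, 1.36 (SE 0.17, adjusted p = 4.50e-04), at a low level. Its level was 2.86, 4.36 and 3.79 CPM in the controls and 9.17, 9.84 and 9.28 CPM in the mutants, and the groups were separate. *Gal3st1*, the sulfotransferase that makes sulfatide, stood at 4.43, 4.23 and 6.29 CPM in the controls and 9.57, 8.73 and 7.79 CPM in the mutants (log2 fold change 0.80, SE 0.18, adjusted p = 0.0096). This call was lost in 9 of 16 alternative settings, more than any other of the 14, among them the fits without control 1 (adjusted p = 0.0347), control 2 (0.0404), mutant 1 (0.0411) and mutant 2 (0.0157), the range over all settings being 2.6e-04 to 0.0448.

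*Sirt2*, a deacetylase abundant in myelinating cells, was the most abundant transcript of this group per length in the controls. Its level was 122, 118 and 115 CPM in the controls and at 154, 159 and 179 CPM in the mutants, with an adjusted p of 5.96e-04 and a log2 fold change of 0.47 (SE 0.06), under the threshold. Without mutant 1 the value was 0.51 and without mutant 2 it was 0.50, each of which passed. *Gjc3*, the gap junction protein connexin 29, was counted at 12.6, 12.9 and 13.9 CPM in the controls and at 19.6, 20.9 and 43.1 CPM in the mutants. The groups were separate, but mutant 3 stood far above the other mutants and the adjusted p was 0.0146 (log2 fold change 1.08, SE 0.27). Without mutant 3 the log2 fold change was 0.62 and passed the call (adjusted p = 0.00514), and it also passed without mutant 1 (1.29, adjusted p = 0.00748) or mutant 2 (1.26, adjusted p = 0.00464).

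The other genes of mature myelin were not called. *Mog*, a protein of the outermost myelin surface, was counted at 6.51, 5.08 and 6.61 CPM in the controls and 8.42, 5.80 and 7.97 CPM in the mutants (log2 fold change 0.29, SE 0.18, adjusted p = 0.286). *Ugt8a*, the enzyme of galactosylceramide synthesis, had means of 12.6 ± 0.834 and 11.8 ± 1.84 CPM (log2 fold change -0.09, SE 0.13, adjusted p = 0.673). *Cldn11*, the claudin of the myelin tight junction, had means of 30.7 ± 2.83 and 34.9 ± 5.19 CPM (log2 fold change 0.19, SE 0.12, adjusted p = 0.273). The libraries of the groups overlapped in all 3.

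*Fa2h*, which hydroxylates myelin lipids, had means of 4.47 ± 0.562 and 6.47 ± 1.97 CPM (log2 fold change 0.53, SE 0.23, adjusted p = 0.116). *Mobp*, a late myelin protein, lay at 0.651 to 1.28 CPM in the controls and 0.923 to 1.62 CPM in the mutants (log2 fold change 0.56, SE 0.39, adjusted p = 0.325). *Erbb3*, a neuregulin receptor, had 8, 9 and 4 counts in the controls and 22, 17 and 15 in the mutants and reached the minimum count only in the mutants (log2 fold change 1.27, SE 0.42, adjusted p = 0.05). Without *Erbb3* the median of the stage was 0.62. *Opalin*, a late marker of mature oligodendrocytes, had at most 1 count in any library and was not tested. A change in *Opalin* was therefore not detectable at this depth.

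Compared per length, the genes of the lineage covered a wide range of levels and their order differed between the groups. In the controls, *Olig1* stood highest at 52.7 ± 4.03 FPKM, followed by *Sirt2* at 23.3 ± 0.707, *Vcan* at 21.7 ± 3.64, *Pdgfra* at 19.2 ± 1.13, *Cnp* at 16.5 ± 1.09 and *Cldn11* at 16.3 ± 1.51 FPKM. *Vcan* was not separated by its spread from its neighbours in this order, nor *Cnp* from *Cldn11*. In the mutants, *Olig1* was at 86.3 ± 5.88, *Cnp* at 35.1 ± 2.11, *Sirt2* at 32.4 ± 2.61 and *Vcan* at 24.9 ± 4.91 FPKM, while *Pdgfra* at 14.1 ± 0.328 FPKM lay close to *Sox10* at 13.1 ± 0.812 FPKM. Apart from *Nkx6-2* and *Opalin*, *Erbb3* was lowest, at 0.0749 ± 0.0287 and 0.183 ± 0.0279 FPKM.

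The contrast of progenitor with differentiating genes depended on how the transcription factors were placed. Counting surface, matrix and transcription factor genes as progenitor genes, 5 of 10 tested were called higher with a median log2 fold change of 0.49. Of the 20 committed, myelin and maturing genes tested, 9 were called higher with a median of 0.67. The background of both counts was 3.03%. The difference of the medians was -0.175, and it was -0.464 when the surface and matrix genes alone stood for the progenitors. The 20 differentiating genes include *Erbb3*, which passed the filter only through its level in the mutants. Leaving it out, a choice made after seeing the data, gave a median of 0.64 for the other 19 and a difference of -0.153. Without control 3 the difference was -0.266, with DESeq2 it was -0.095 and without a filter on low counts it was -0.094. It kept its sign in every alternative run, all of which drew on these same genes. In the lists of other genes the order was reversed, with medians of 0.27 for progenitor genes and 0.21 for myelin genes. Members of a list are not replicates, and no test of this difference was made.

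Library by library, the contrast was taken with the opposite sign and with means in place of medians. It was the mean log2 difference from the control mean of the differentiating genes minus that of the progenitor and transcription factor genes. Its values were 0.015, -0.007 and -0.008 in the controls and 0.295, 0.166 and 0.301 in the mutants, so all mutants lay above all controls. With medians they were -0.034, -0.043 and 0.044 in the controls and 0.113, 0.183 and 0.309 in the mutants, also without overlap. The differentiating genes here include *Erbb3*. The surface and matrix genes averaged 0.110, 0.280 and 0.211 in the mutants, and since control 2 averaged 0.093, mutant 1 was only just outside the range of the controls. The transcription factors averaged 0.637, 0.658 and 0.701, the committed precursor genes 0.631, 0.602 and 0.666, and the myelin and maturing genes 0.689, 0.653 and 0.806. In these last 3 groups the mutants differed little from each other and the averages lay at similar heights. Summed over genes, progenitor and transcription factor genes went from 155.5 ± 6.23 to 216.3 ± 7.0 FPKM and differentiating genes from 109.8 ± 3.54 to 172.4 ± 6.24 FPKM. The sum of the surface and matrix genes alone overlapped, at 57.9 to 68.0 FPKM in the controls and 61.5 to 72.3 FPKM in the mutants. That of the transcription factors was 88.2 to 99.5 and 144 to 158 FPKM, of which *Olig1* gave means of 52.7 and 86.3 FPKM.

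**Figure D3:**
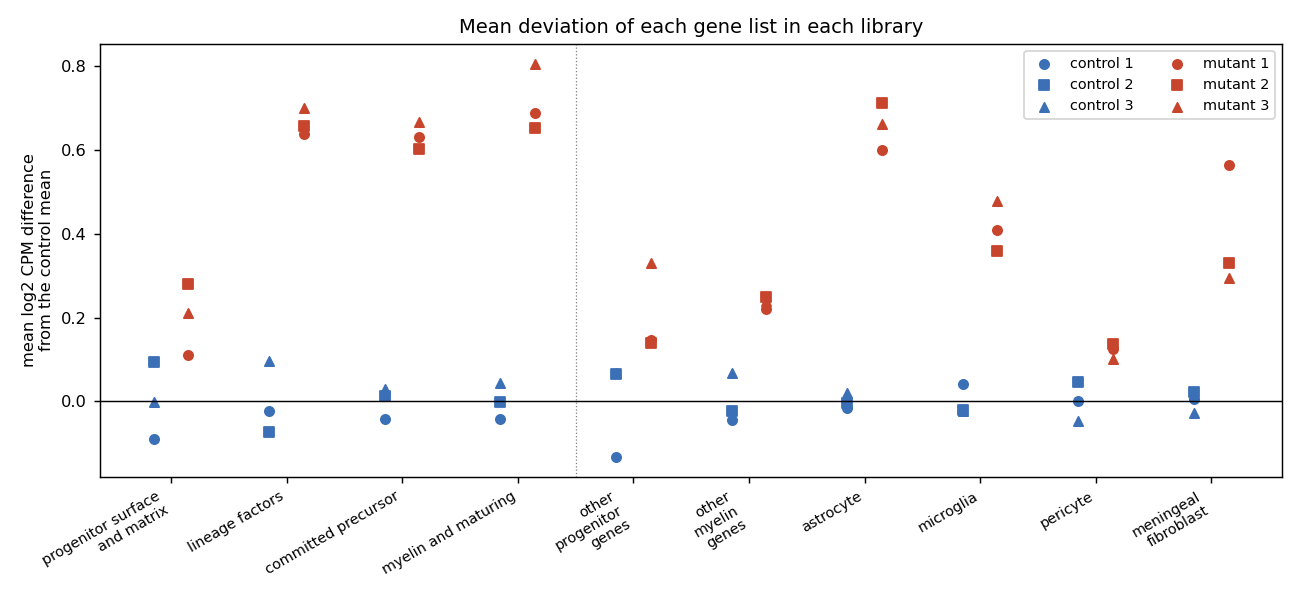
Mean log2 CPM difference from the control mean of each gene list in each library, for the 4 stages (left of the dotted line) and for other lists of lineage genes and cell type markers. Controls (blue) lie around 0, and the mutants (red) lie between 0.6 and 0.81 for the transcription factors, committed, and myelin and maturing genes and for the astrocyte markers but at 0.11 to 0.28 for the progenitor surface and matrix genes.

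Within each library, counts relative to *Pdgfra* give a comparison that does not depend on scaling between libraries. *Cspg4* stood at 0.179, 0.159 and 0.162 of the *Pdgfra* count in the controls and at 0.262, 0.257 and 0.267 in the mutants, a mean ratio 1.57 times higher. *Olig2* stood at 0.189, 0.165 and 0.205 and at 0.400, 0.423 and 0.386, which is 2.16 times higher. The mean ratio was higher by a factor of 2.67 for *Sox10*, 2.87 for *Gpr17*, 2.88 for *Cnp* and 3.11 for *Myrf*. In all of these genes, and in *Olig1* at 2.22 times, every mutant was above every control. Of 3 genes that were not called, *Tcf7l2* had a ratio 1.47 times higher and *Ugt8a* 1.29 times higher, both without overlap, and *Zfp488* had one 1.21 times higher in which the groups overlapped. Because *Pdgfra* itself was lower and the genes were chosen with results of these data known, these ratios are a description and were not tested.

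**Figure D4:**
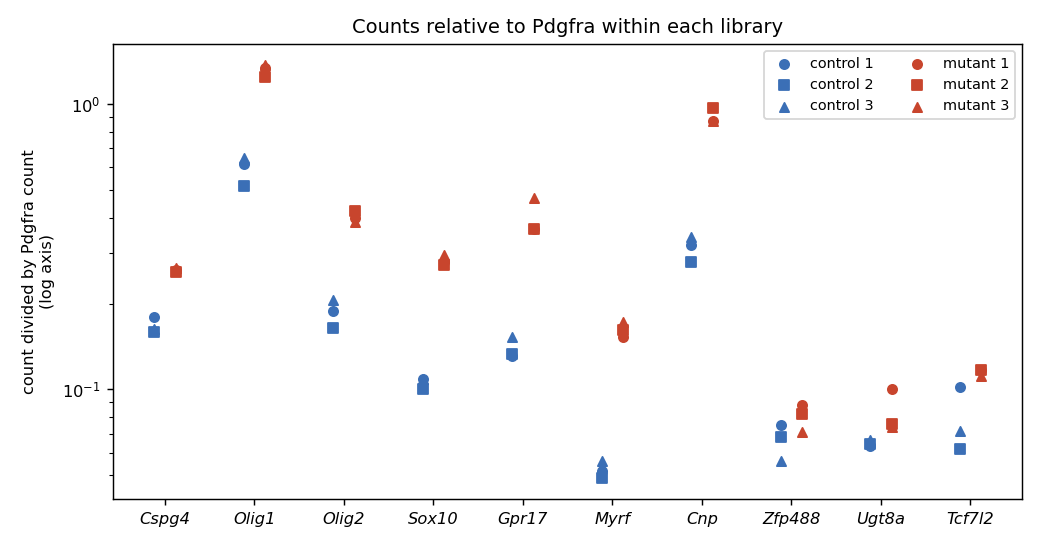
Count of 10 genes divided by the *Pdgfra* count of the same library, on a log axis, with controls in blue and mutants in red. The 3 mutants stand above the 3 controls for every gene but *Zfp488*, and the ratio of means is highest for *Myrf* and lowest for *Zfp488*.

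Further genes of the lineage were described from lists beyond the 32. Of 11 other progenitor genes, 0 were called higher (background 3.03%) and 1 was called lower (background 3.63%). This was *C1ql1*, a secreted C1q-like protein, which fell from 26.1 ± 2.08 to 15.01 ± 2.16 CPM (log2 fold change -0.80, SE 0.11, adjusted p = 9.35e-04). DESeq2 called 1 of the 11 higher as well, and at an unadjusted p under 0.05, 6 were higher (background 18.2%) and 2 were lower (background 19%). *Cspg5*, *Megf11* and *Cacng4*, all membrane proteins, passed the adjusted p with log2 fold changes of 0.37, 0.35 and 0.27, under the fold threshold, and the median of the list was 0.27. Of 20 other myelin genes tested, 2 were called higher (background 3.03%) and 1 lower (background 3.63%), with a median of 0.21. *Plekhb1* stood at 15.2, 17.5 and 15.9 CPM in the controls and rose to 25.9, 27.1 and 27.3 CPM in the mutants (log2 fold change 0.72, SE 0.09, adjusted p = 3.3e-04). The small heat shock protein gene *Cryab* rose with a log2 fold change of 0.74 (SE 0.14, adjusted p = 0.00431), and *Anln*, which in dividing cells serves cytokinesis, fell (log2 fold change -0.61, SE 0.12, adjusted p = 0.00391).

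Among 23 other regulators of the lineage, 2 were called higher (background 3.03%) and 2 lower (background 3.63%), with a median log2 fold change of -0.09. *Sox2*, a factor of neural progenitors and glia, rose from 93.5 ± 8.20 to 147 ± 7.18 CPM (log2 fold change 0.65, SE 0.07, adjusted p = 1.82e-04). *Chd7*, a chromatin remodeller that acts with *Sox10* in the lineage and is also abundant in GNPs, fell from 588.5 ± 21.9 to 333 ± 22.3 CPM (log2 fold change -0.82, SE 0.06, adjusted p = 1.75e-05). *Prdm8* fell with a log2 fold change of -0.59 (SE 0.08, adjusted p = 7.05e-04), and *Id4*, an inhibitor of differentiation, had 0.46 (SE 0.05, adjusted p = 2.23e-04), under the fold threshold.

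Of 16 ligands known to act on the lineage, 6 were called higher (background 3.03%) and 1 lower (background 3.63%), with a median of 0.48. The Notch ligand *Dll1* rose from 24.2 ± 1.47 to 40.9 ± 0.603 CPM (log2 fold change 0.76, SE 0.08, adjusted p = 1.32e-04). *Bmp4*, a bone morphogenetic protein that restrains oligodendrocyte differentiation, rose from 3.20 ± 0.211 to 7.46 ± 1.29 CPM (log2 fold change 1.22, SE 0.18, adjusted p = 0.00103). *Wnt7b* rose with a log2 fold change of 0.55 (SE 0.07, adjusted p = 6.72e-04). *Pdgfc*, a ligand of PDGFRA, fell from 35.0 ± 1.52 to 24.1 ± 1.018 CPM (log2 fold change -0.53, SE 0.08, adjusted p = 9.98e-04). *Pdgfa*, the main mitogen of the progenitors, named here after its values were seen, had 19.3 ± 1.41 and 26.3 ± 2.23 CPM and an adjusted p of 0.00773 with a log2 fold change of 0.44 (SE 0.10), under the threshold.

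Other cell types moved at the same time. The background of the calls in these marker lists was 3.03% higher and 3.63% lower. All 6 GNP markers fell, with a median log2 fold change of -1.24, and their summed level went from 903 to 972 CPM in the controls to 325 to 353 CPM in the mutants. Of 8 astrocyte markers, 5 were called higher, with a median log2 fold change of 0.62, near that of the lineage genes, and their summed level was 2223 to 2294 CPM in the controls and 2916 to 3152 CPM in the mutants. *Gfap*, the filament protein of astrocytes, was at 36.3 to 48.1 CPM in the controls and 92.2 to 129 CPM in the mutants. Of 8 microglial markers 1 was called higher, *C1qa*, with a median of 0.38 and a summed level of 114 to 115 CPM in the controls and 143 to 156 CPM in the mutants.

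The 8 genes of cerebellar tissue moved in both directions, with a median log2 fold change of -0.32 and a summed level of 3678 to 3802 CPM in the controls and 3294 to 3582 CPM in the mutants. The Purkinje cell genes *Calb1*, *Car8* and *Pcp2* were called higher, with log2 fold changes of 0.68 (SE 0.07, adjusted p = 1.4e-04), 0.63 (SE 0.06, adjusted p = 1.04e-04) and 0.63 (SE 0.08, adjusted p = 6.07e-04), near the median of 0.60 of the lineage genes. *Neurod1* and *Pax6*, genes of the granule neuron lineage, were called lower, with log2 fold changes of -1.17 (SE 0.05, adjusted p = 6.6e-07) and -0.99 (SE 0.06, adjusted p = 8.27e-06). Of 8 genes listed as midbrain markers, 4 were tested, with a median of 0.32, and 1 was called lower (background 3.63%). This was *Otx2*, which fell from 52.9 ± 3.47 to 23.6 ± 1.40 CPM (log2 fold change -1.16, SE 0.08, adjusted p = 1.81e-05). The other 3 were not called, with log2 fold changes of 0.27 (*Pou4f1*), 0.37 (*Gata2*) and 0.40 (*Sox14*). *Otx2* thus did not move with the rest of its list, and the cells its level comes from were not tested. The part of the shifts in all these cell types in the levels of the lineage genes was not tested.

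Some lineage genes are also expressed in cells of the nerve, vessels and meninges. *Sox10*, *Mag*, *Cnp*, *Mbp* and *Erbb3* are used by Schwann cells too. Of 5 Schwann cell markers tested, 0 were called by edgeR and 0 by DESeq2, with 2 higher at an unadjusted p under 0.05 (background 18.2%) and a median log2 fold change of 0.42. *Pmp22*, a myelin protein of peripheral nerve, was at 28.4, 23.5 and 23.3 CPM in the controls and 39.0, 32.6 and 28.7 CPM in the mutants, without overlap (log2 fold change 0.42, SE 0.12, adjusted p = 0.0350). Over the 5 tested, the log2 fold change was positive in 3 and negative in 2, from -0.69 to 0.90. *Egr2* had the lowest value, with means of 1.45 and 0.887 CPM and every mutant below every control (adjusted p = 0.251). The genes *Foxd3*, *Cdh19* and *Dhh* stayed at means of at most 0.358 CPM in either group and were not tested. The summed level of the 8 markers was 40.0 to 49.3 CPM in the controls and 60.7, 49.9 and 47.9 CPM in mutants 1, 2 and 3, so the groups overlapped. The part of Schwann cells in the levels of the shared genes was not tested.

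*Cspg4* is also a pericyte gene and *Pdgfra* a gene of meningeal fibroblasts. Of 8 pericyte markers, 1 was called higher, *Vtn* (background 3.03%), with a median log2 fold change of 0.07. Of these 8, 5 had a positive log2 fold change and 3 a negative one, from -0.18 to 0.69. Their summed level was 433 to 462 CPM in the controls and 515 to 530 CPM in the mutants. That sum holds *Vtn*, which went from 59.3 ± 3.43 to 95.5 ± 6.73 CPM, and *Notch3*, from 147 ± 9.23 to 192 ± 3.85 CPM. Of 8 meningeal fibroblast markers, 3 were called higher (background 3.03%), with a median of 0.44. The log2 fold change was positive in 5 of the 8 and negative in 3, from -0.16 to 0.95. Their summed level was 934 to 966 CPM in the controls and 1587, 1305 and 1161 CPM in the mutants. *Col1a2*, a fibrillar collagen, rose from 167 ± 6.31 to 285 ± 31.7 CPM. The part of pericytes and fibroblasts in the levels of *Cspg4* and *Pdgfra* was not tested.

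The animals were of both sexes, which the counts of *Xist* and of the Y-linked *Ddx3y* separated into control 1, mutant 1 and mutant 3 (male) and control 2, control 3 and mutant 2 (female). Compared within each sex, all 14 genes called higher were higher in the mutants in males and in females, with log2 differences from 0.477 to 1.676. *Pdgfra* was lower in both, by log2 differences of -0.377 in males and -0.487 in females. Among tested genes that were not called, the direction differed between the sexes in *Tcf7l2* (-0.205 in males, 0.33 in females) and *Ugt8a* (0.073 and -0.276). The median of the surface and matrix genes was 0.185 and 0.246, that of the transcription factors 0.679 and 0.610, that of the committed genes 0.818 and 0.590 and that of the myelin and maturing genes 0.739 and 0.682. With 1 or 2 libraries per group in each sex these values carry no test.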

How the data were processed

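TRIzol-extracted RNA of P1 cerebella was enriched for mRNA with poly-T beads, and both ends of each fragment were sequenced. The authors aligned reads to mm10 with HISAT2 (2.0.5) and deposited raw counts per gene from featureCounts (1.5.0-p3). The authors also deposited FPKM values, computed from counts and gene length, together with the gene length in bases. The strand setting and annotation release are not given in the sources used here. Reads of overlapping genes may therefore be shared, and 13 of the 32 genes share exon bases with another gene in GENCODE M21.

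The edgeR quasi-likelihood test (edgeR 4.0.16 under R 4.3.3, with filterByExpr and TMM) was fitted to the counts of all 17505 genes tested, which held 99.8% of counts, with Benjamini-Hochberg adjustment over those genes. CPM values are counts scaled by the TMM-normalized library total, and 3 counts were taken as the detection floor. The fits were tested on simulated counts. Same-group libraries differed by more than sampling noise (chi-square per gene 3.63 to 10.0), so none was a copy. Alternatives used DESeq2 1.42.0, limma 3.58.1 on log2(FPKM + 1) and log2(FPKM + 0.1), other scalings, filters and thresholds, a replicate block, the level of Y-linked genes as a covariate, and each library left out in turn.

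The members, stages and other lists were chosen with earlier results of these data known. Named were all 32 genes, *Tox3*, *Atoh1*, *Xist* and *Ddx3y*, and at most the 4 genes with the smallest p of each other list. *Foxd3*, *Cdh19*, *Dhh*, *Pdgfa* and *Pcp2* were named after their values were seen. Lists are described by counts and, where tested, by medians, and none was tested as a set. Some genes of the other lists are not reported here, so those lists are incomplete.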

Additional observations from a re-analysis of the deposited data

How the results depend on the processing

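The count of lineage genes called higher was 12 to 19 in the alternatives apart from limma on unfiltered log2(FPKM + 1), which gave 8, and glmTreat against a log2 fold change of 0.5, which gave 4 (*Cnp*, *Sox10*, *Myrf* and *Mag*). Leaving out each library gave 13 to 15. At an adjusted p under 0.05 with no fold threshold 1 lineage gene was lower. *Tnr*, *Olig1*, *Olig2*, *Sox10*, *Gpr17*, *Cnp* and *Mbp* were called in all 16 refits. *Gal3st1* was lost in 9, *Enpp6* in 3, and *Sox8*, *Bcas1*, *Lims2*, *Myrf* and *Mag* in 1 each, while *Gjc3* was gained in 6 and *Sirt2* in 2. In these refits no fold change of a lineage gene turned its direction. Over all genes, limma gave 243 higher and 360 lower with log2(FPKM + 1), 297 and 416 with log2(FPKM + 0.1) and 176 and 286 without a filter. An adjusted p under 0.05 alone gave 2136 and 2252, glmTreat gave 30 and 145, and leaving out libraries gave 349 to 569 higher. With log2(FPKM + 1) the median of the transcription factors was 0.579 with and without a filter, and that of the myelin genes was 0.457 and 0.392. Such a pseudocount shrinks the fold changes of low genes. Leaving out libraries gave medians of 0.558 to 0.727 for the committed genes and 0.623 to 0.899 for the myelin genes. The difference between progenitor and differentiating medians was -0.095 with DESeq2, -0.094 without a count filter, -0.067 with unfiltered log2(FPKM + 1), -0.26 as a difference of means, -0.464 for surface and matrix genes alone and -0.266 to -0.142 with libraries left out. Other causes of these shifts were not tested. Chosen after seeing the data, leaving out *Erbb3* gave -0.153, and leaving out *Gpr17* and *Lims2* gave -0.112 and 12 calls.

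Replicate numbers are shared between the groups. Same-numbered libraries had correlations of 0.244, 0.261 and -0.171 in their deviations from the group means, and differently numbered ones had -0.419 to 0.272. Deviations of 3 libraries from their own mean are tied to each other, so these values cannot decide whether the numbers pair the libraries. With the replicate number as a block, 14 lineage genes were called higher and 0 lower, with *Gal3st1* at an adjusted p of 0.0101 and *Vcan* at 0.024, and over all genes 561 were higher and 696 lower.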
